A study of Mus musculus with 2 samples.

Results

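Heat shock proteins and cytosolic chaperones were examined as 45 genes: the heat shock factors, the small heat shock proteins, the HSP70 and HSP90 systems with their co-chaperones, the TRiC/CCT chaperonin and the mitochondrial chaperones. Of these, 44 had a row among the 19498 genes of the table, and Hspa1a, which had none, has no expression value here. Members were chosen by symbol, and no measured value entered the rule. The study compared 4T1, a mouse mammary carcinoma cell line, after control treatment with the same line after exposure to LY500307, an estrogen receptor beta agonist made by synthesis. There was 1 library of ribosomal RNA-depleted total RNA in each group, and the sources used here give neither the dose, nor the duration, nor the nature of the control treatment. Each difference below therefore describes a pair of libraries, with no replicate check and no test of the treatment.

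Whole reads could be recovered from the deposited values, 14541874 in the control library and 15104003 in the LY500307 library. Folds were taken from the deposited normalised values, LY500307 over control, and each has a 95% exact Clopper-Pearson interval from the recovered reads, which covers counting error only. In bulk RNA, less transcript per cell and fewer cells with the transcript cannot be told apart. The epithelial markers Epcam, Cdh1, Krt8, Krt18 and Krt7 had between 2195 and 17073 reads in each library, while Krt14 had 28 and 76. Defining markers of other cell types were near 0, with 2 and 4 reads of the leucocyte gene Ptprc and 6 and 4 of the endothelial gene Pecam1, although the mesenchymal receptor gene Pdgfra had 271 and 285 and the lysosomal gene Cd68 had 81 and 102.

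Chaperones bind unfolded or partly folded proteins and keep them from aggregating. HSP70 works in cycles of ATP hydrolysis that J-domain proteins start and nucleotide exchange factors end, and it passes some clients on to HSP90, which matures kinases and steroid hormone receptors, estrogen receptors among them. TRiC/CCT is a ring-shaped chamber in which actin and tubulin fold. On heat or other damage to proteins, heat shock factor 1 binds heat shock elements in promoters and raises the inducible members of these families, while other members are made at all times.

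Most chaperone transcripts were slightly more abundant in the LY500307 library. Of the 42 members at or above the floor, meaning that the higher of their 2 values reached 33.0 normalised reads, 28 had a log2 ratio above 0, where 47.2% of the 11384 genes past that floor did. Their median log2 ratio was 0.08, and that of all genes was −0.02 with quartiles at −0.18 and 0.13. At least 1.2-fold higher were 5 members, Hspa4l, Bag2, Hsf2, Hspd1 and Hsp90aa1, against 10.5% of all genes. At least 1.2-fold lower were 2 members, Stub1 and Hspa1b, against 15.9% of all genes. The higher count was thus near the background share and the lower count under it. No member was past 1.5-fold in either direction, where 1.8% of all genes were higher and 1.97% lower. At the 1.2-fold threshold, Hsp90aa1 lay just inside with a log2 ratio of 0.27 and Ptges3 just outside with 0.26. This threshold was chosen after earlier results of these data had shown few members past 1.5-fold. Together the 44 genes held 2.18% of reads in the control library (exact binomial interval 2.17 to 2.19) and 2.37% in the LY500307 library (2.37 to 2.38).

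**Figure D1:**
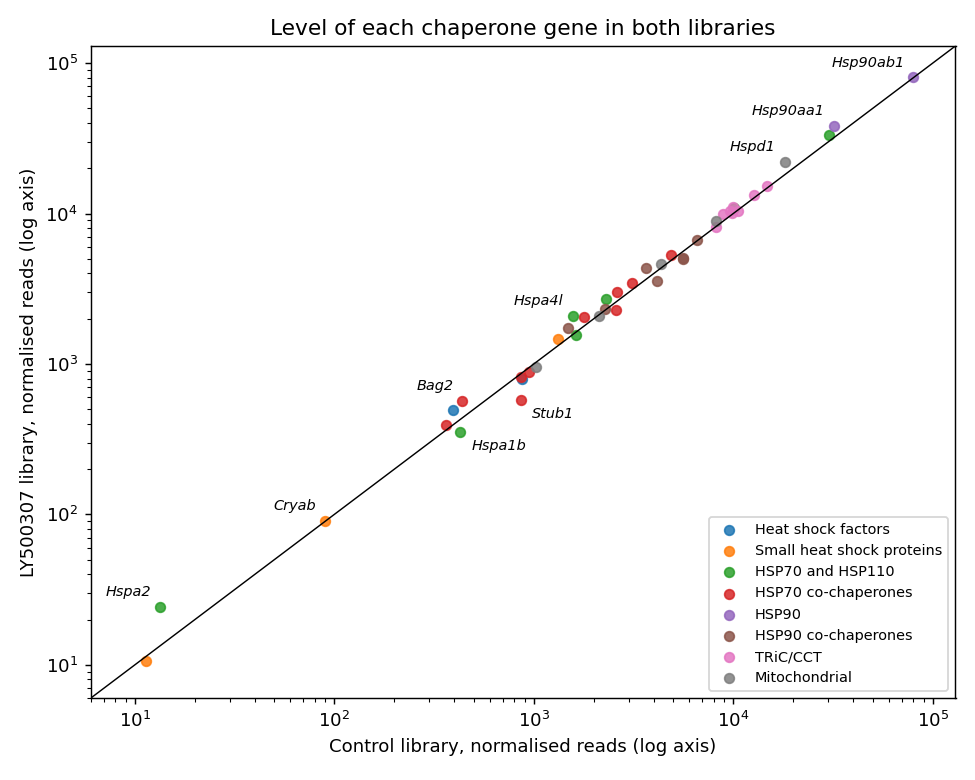
Normalised reads of 44 chaperone genes in the control library (horizontal, log axis) and the LY500307 library (vertical, log axis), 1 point per gene, coloured by class, with the line of equal values. Apart from Hspa2, at 13 and 25 reads, points lie close to the line, from Hspb1 with 11 reads in each library to Hsp90ab1 with 77674 and 82816.

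Members are deeply read, which narrows their counting intervals. The interval lay above 1 for 23 of the 42 members, against 18.1% of all genes, and below 1 for 6, against 23.7%. Among the 38 members with at least 1000 reads over both libraries, 22 had an interval above 1 and 5 below 1, while the shares among the 5880 genes of that depth were 24.5% and 31.0%. Of those 38, 25 had a log2 ratio above 0, against 47.6%, 4 were at least 1.2-fold higher, against 4.64%, and 1 was lower, against 11.5%. Past 1.5-fold were 0.051% of genes of that depth on the higher side and 0.408% on the lower, and no member. The share of members above 1 was thus larger than that among genes of that depth at large, in differences that were mostly under 1.2-fold.

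Promoter sequence was read for the 37 listed genes with a RefSeq window, Hspa1a included, which runs from 250 bases before to 50 after the gene's start on build GRCm38.p6. Heat shock elements are repeats of the unit GAA in alternating orientation. Windows were searched on both strands for a pair of units, written GAANNTTC or TTCNNGAA, and for a run of 3, written GAANNTTCNNGAA or TTCNNGAANNTTC, which contains the pair. Of these, 34 were members at or above the floor. The run of 3 was found in 5 of the 34, 14.7%, and in 0.550% of the 8543 genes at or above the floor with a window. The pair was found in 16 of the 34, 47.1%, and in 13.6% of those genes. A match describes letters only, and binding of a heat shock factor was not measured. Stretches of 30 bases are shown for the members with a run of 3. They compare how the units lie in genes that all stood above 0 as deposited. The element is in capitals, and all strands are read in the direction of the gene. Hspd1 and Hspe1 are transcribed away from each other from a shared promoter, and each window holds a run of 3. The stretch printed is from the Hspe1 window only.
Hsph1: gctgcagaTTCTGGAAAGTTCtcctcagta
Chordc1: tgcaaccgGAACGTTCGGGAAAATTCCTGA
Dnajb6: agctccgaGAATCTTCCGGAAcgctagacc
Hspe1: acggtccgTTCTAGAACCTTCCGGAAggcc

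The Hsph1 stretch lies at chr5:149636279-149636308 on the minus strand, with its first capital 15 bases after the start. In Chordc1 it lies at chr9:18292255-18292284 on the plus strand, with the first capital 4 bases before the start, and it holds overlapping runs. Dnajb6 has its stretch at chr5:29735844-29735873 on the plus strand, 46 bases before the start, and Hspe1 at chr1:55088051-55088080 on the plus strand, 89 bases before the start, again with overlapping runs. The members that were at least 1.2-fold lower, Hspa1b and Stub1, hold a pair and no run of 3. Hspa1b is shown with 128 bases at chr17:34959275-34959402 on the minus strand, outside annotated exons, and Stub1 with 30 bases at chr17:25833024-25833053 on the minus strand. Their first capitals lie 104 and 123 bases before the start.
Hspa1b: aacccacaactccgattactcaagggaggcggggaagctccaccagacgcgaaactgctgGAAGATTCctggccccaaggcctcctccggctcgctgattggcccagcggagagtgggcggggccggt
Stub1: agagcgcggcgGAAGCTTCtcagagctaag

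Members with a run of 3 were Hsph1, Dnajb6, Chordc1, Hspd1 and Hspe1, and their log2 ratios ran from 0.09 to 0.29 with a median of 0.23, or 0.16 with the GC and length trend described further on removed. The 11 members at or above the floor with a pair only had a median of 0.05 and ran from −0.58 to 0.20. With the trend removed their median was 0.006. Those with neither, 18 members, had a median of 0.03 and ran from −0.22 to 0.42, and their median was 0.02 with the trend removed. Above 0 were then 4 of the 5 with a run of 3, 6 of the 11 and 11 of the 18, against 46.3% of all genes. These groups were formed after the values were known, overlap in range and share a promoter in 1 case, so they are a description. Hsp90aa1, Hsp90ab1, Hspa8, Hsf1, Cryab, St13, Cct4 and Hspa9 are not in the comparison.

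The heat shock factors lay on opposite sides of 1. Hsf1, the main regulator of the heat shock response, had 846 reads in the control and 816 in the LY500307 library, a fold of 0.908 (0.824 to 1.001), so counting did not separate it from 1. Hsf2, which can form mixed trimers with Hsf1, had 381 and 506 reads and a fold of 1.25 (1.09 to 1.43). Its log2 ratio of 0.32 placed it above 92.8% of genes at or above the floor. Hsf1 activity is controlled largely at the protein level, which was not measured here.

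Small heat shock proteins hold unfolded clients without using ATP, and their transcripts were scarce apart from Hspb8. Hspb8, the partner of Bag3 in clearing aggregates, had 1289 and 1516 reads, a fold of 1.11 (1.03 to 1.19). Cryab, the alpha-B crystallin gene, had 87 and 93 reads and a fold of 1.01 (0.743 to 1.36). For Hspb1, an actin-stabilising small heat shock protein and common stress marker, 11 reads in each library were too few for a difference to be detectable.

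Of the cytosolic HSP70 genes, the constitutive Hspa8 was higher and the heat-inducible Hspa1b was lower. Hspa8, the constitutive cytosolic HSP70 known as HSC70, had 29137 and 34426 reads, a fold of 1.11 (1.10 to 1.13). Hspa1b, the heat-inducible HSP70 whose promoter is printed above, had 416 and 365 reads and a fold of 0.826 (0.716 to 0.953). Their intervals do not overlap. Per kilobase of transcript, the level of Hspa1b was 0.0122 of that of Hspa8 in the control library (0.0110 to 0.0134) and 0.00906 in the LY500307 library (0.00815 to 0.01004). Hspa1b and Hspa1a are 99.2% identical over 2201 aligned bases, so the copy from which the reads of Hspa1b came is uncertain. The log2 ratio of Hspa1b was −0.27 as deposited and −0.059 once a trend over genes in GC content and transcript length was taken out.

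The HSP110 genes, whose products act as nucleotide exchange factors for HSP70, were all higher. Hspa4l had 1519 and 2161 reads and, at 1.34-fold (1.25 to 1.43), the highest ratio of the 42 members, above 96.3% of genes at or above the floor. Hsph1, the heat-inducible HSP110, had 2235 and 2791 reads, a fold of 1.18 (1.11 to 1.24). Hspa4, the most abundant of the class after Hspa8, had 9778 and 11274 reads, a fold of 1.09 (1.06 to 1.12). The interval of Hspa4l does not overlap those of the other two, which overlap each other. As deposited, the log2 ratios of Hspa4l, Hsph1 and Hspa4 were 0.42, 0.23 and 0.12. Once the GC and length trend was removed, they were 0.18, 0.16 and 0.02, so Hspa4l then lay close to Hsph1. Hspa14, a ribosome-associated HSP70, had 1572 and 1610 reads and a fold of 0.964 (0.899 to 1.03), and it overlaps the gene model Gm45902. Hspa2, known from testis, had 13 and 25 reads and lay below the floor.

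**Figure D2:**
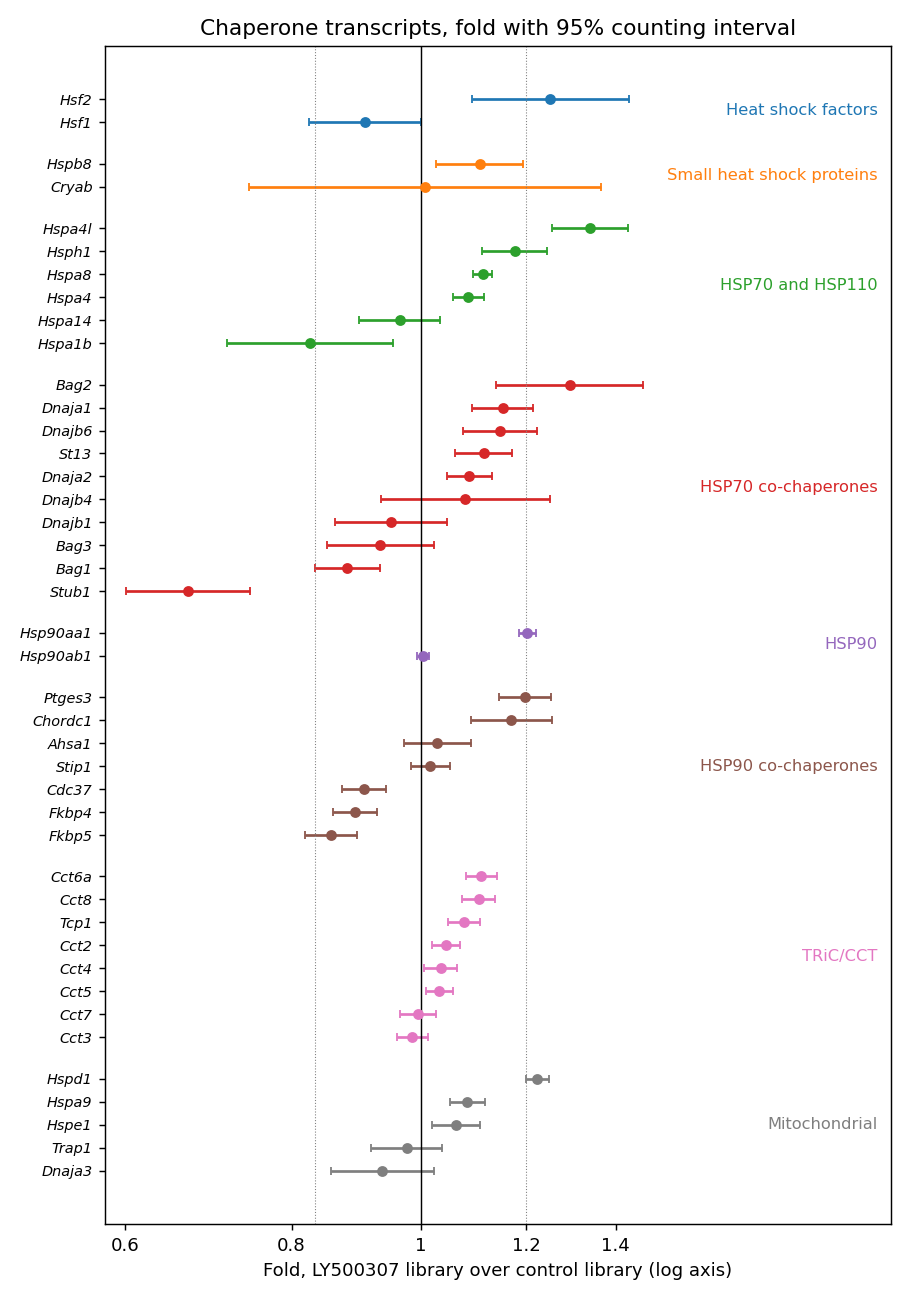
Fold of the LY500307 over the control library (horizontal, log axis) for the 42 chaperone genes at or above the floor, grouped by class, with 95% counting intervals as bars, and vertical lines at 1 and at 1.2-fold either way. Stub1 stands furthest to the left at 0.669 and Hspa4l furthest to the right at 1.34, and the 8 TRiC/CCT subunits lie between 0.985 and 1.11.

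J-domain proteins, which deliver clients to HSP70 and start its ATPase, were higher beyond counting error for 3 of the 5 cytosolic genes, where 18.1% of all genes were. Dnaja1 had 2541 and 3109 reads, a fold of 1.15 (1.09 to 1.21), and Dnajb6, which keeps polyglutamine proteins from aggregating, had 1732 and 2109, also a fold of 1.15 (1.08 to 1.22). Dnaja2 had 4740 and 5475 reads, a fold of 1.09 (1.05 to 1.13). With the GC and length trend removed, the log2 ratios of Dnaja1, Dnajb6 and Dnaja2 were 0.04, 0.07 and −0.02. The intervals of the other two spanned 1. Dnajb1, the heat-inducible HSP40, had 835 and 842 reads and a fold of 0.949 (0.862 to 1.05), and Dnajb4 had 353 and 405 and a fold of 1.08 (0.934 to 1.25). Dnaja1 and Dnajb6 each have near-identical copies elsewhere in the genome, and with the reads of those copies added their folds were 1.17 (1.11 to 1.23) and 1.13 (1.06 to 1.2).

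BAG proteins, which release nucleotide from HSP70, differed among themselves. Bag2, an inhibitor of the ubiquitin ligase encoded by Stub1, had 426 and 585 reads, a fold of 1.29 (1.14 to 1.47), above 94.7% of genes at or above the floor. Bag1, which links HSP70 to the proteasome, had 2520 and 2358 reads and a fold of 0.881 (0.833 to 0.932). Bag3, the heat-inducible member that directs clients to autophagy, had 923 and 914 reads and a fold of 0.932 (0.850 to 1.02). Only Bag2 of these stood above 1. Per kilobase, the level of Bag2 was 0.0971 of that of Bag1 in the control library (0.0874 to 0.108) and 0.142 in the LY500307 library (0.130 to 0.156).

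Stub1 had the lowest ratio of the 42 members. It encodes CHIP, the ubiquitin ligase that binds HSP70 and HSP90 and marks their clients for the proteasome. Stub1 had 837 and 595 reads, a fold of 0.669 (0.602 to 0.744), and 2.02% of genes at or above the floor had a lower ratio. Jmjd8, a gene that overlaps Stub1, had 76 and 94 reads, so it was not lower alongside. At 60.8% Stub1 also has the highest transcript GC content of these members, and with the GC and length trend removed its log2 ratio was −0.26 in place of −0.58. St13, which encodes the HSP70-interacting protein Hip, had 3001 and 3553 reads and a fold of 1.11 (1.06 to 1.17).

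Of the cytosolic HSP90 genes, the stress-inducible one was higher and the constitutive one was near 1. Hsp90aa1 had 31040 and 39630 reads, a fold of 1.202 (1.18 to 1.22), above 89.7% of genes at or above the floor. Hsp90ab1, with 77674 and 82816 reads the most abundant member, had a fold of 1.004 (0.994 to 1.01). With library totals set equal, the log2 ratio of Hsp90ab1 was 0.04 in place of 0.01, outside that interval. Per kilobase, the level of Hsp90aa1 was 0.307 of that of Hsp90ab1 in the control library (0.303 to 0.311) and 0.368 in the LY500307 library (0.363 to 0.372). The near-identical Hsp90aa1 copies elsewhere in the genome had 2.94% and 2.61% as many reads as the gene, and with them added the fold was 1.198 (1.18 to 1.22).

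Co-chaperones of HSP90 fell on both sides of 1. Ptges3, which encodes p23 and holds HSP90 in its closed state on steroid receptors, had 3536 and 4496 reads, a fold of 1.197 (1.15 to 1.25). Its processed copy Ptges3-ps had 1114 and 1175 reads, and the fold of gene and copy together was 1.15 (1.10 to 1.19), so the value depends on how reads were shared between them. Chordc1, a CHORD-domain protein that binds HSP90, had 1434 and 1781 reads and a fold of 1.17 (1.09 to 1.25). These were the 2 of 7 co-chaperones whose interval lay above 1. That compares with 18.1% of all genes and 24.5% of those with at least 1000 reads over both libraries.

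Lower beyond counting error were both FKBP immunophilins and the kinase co-chaperone, 3 of the 7. Intervals lay below 1 for 23.7% of all genes and 31.0% of those with at least 1000 reads over both libraries. Fkbp5, an inhibitor of steroid receptor maturation and a classic glucocorticoid-responsive gene, had 4022 and 3660 reads and a fold of 0.857 (0.819 to 0.896). Fkbp4, its counterpart that favours receptor activity, had 5447 and 5166 reads and a fold of 0.893 (0.859 to 0.928). Cdc37, which brings kinases to HSP90, had 5456 and 5257 reads and a fold of 0.907 (0.873 to 0.942). All lay within 1.2-fold. Once the GC and length trend was removed, their log2 ratios were −0.17 for Fkbp5, −0.008 for Fkbp4 and −0.18 for Cdc37. Stip1, which encodes the HSP70 to HSP90 adaptor Hop, had 6399 and 6910 reads and a fold of 1.02 (0.983 to 1.05). Ahsa1, the activator of HSP90 ATPase, had 2202 and 2407 reads and a fold of 1.03 (0.971 to 1.09), and neither was separated from 1.

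The TRiC/CCT subunits, which assemble into rings with each of the 8 present once, had the narrowest range of any class of more than 2 genes. Their log2 ratios ran from −0.02 to 0.15 with a median of 0.06, and none was past 1.2-fold. Cct6a had 9652 and 11382 reads, a fold of 1.11 (1.08 to 1.14), and Cct8 had 8666 and 10171, likewise 1.11 (1.07 to 1.14). Tcp1, the first subunit, had 9369 and 10720 reads and a fold of 1.08 (1.05 to 1.11). Cct2, Cct4 and Cct5 had folds of 1.04, 1.03 and 1.03. The intervals of these 6 subunits lay above 1, against 18.1% of all genes and 24.5% of those with at least 1000 reads. Cct3, with 10200 and 10676 reads and a fold of 0.985 (0.959 to 1.01), and Cct7, with 7925 and 8373 and a fold of 0.995 (0.965 to 1.03), were the subunits not separated from 1. When library totals were set equal, both stood above 0, at log2 ratios of 0.01 and 0.02. Removal of the GC and length trend left 6 of 8 subunits above 0, against 46.3% of all genes. The subunits then ran from Cct4 at −0.05 to Cct7 at 0.09, with a median of 0.03. Cct6a then stood at 0.09 and Cct8 at 0.02, so the order of the subunits was not the same.

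Levels of the subunits also lay close together. Normalised reads per kilobase ran from 3346 to 7992 with a median of 4002 in the control library, and from 3328 to 8254 with a median of 4377 in the LY500307 library. Cct5 was highest and Cct7 lowest in both libraries, and the highest level was 2.39 and 2.48 times the lowest. Cct6a, Cct7, Cct8 and Tcp1 each overlap another gene (Psph, Pradc1, Usp16 and Acat3), and whether counting used strand was not stated in the sources used here.

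Of the mitochondrial chaperones, Hspd1 stood highest. Hspd1, which encodes the HSP60 chaperonin, had 17582 and 22829 reads, a fold of 1.22 (1.199 to 1.25), above 91.3% of genes at or above the floor. Hspe1, which encodes HSP10, the lid of that chaperonin, had 4194 and 4735 reads and a fold of 1.06 (1.02 to 1.11). The pair shares a promoter. The level of Hspd1 per kilobase was 1.34 times that of Hspe1 in the control library (1.29 to 1.39) and 1.54 times in the LY500307 library (1.49 to 1.59). The log2 ratios of Hspd1 and Hspe1 lay closer together once the GC and length trend was removed. They were 0.22 and 0.16, against 0.29 and 0.09 as deposited. Hspe1 and Hspd1 overlap in the annotation, and a near-identical copy of Hspd1, Hspd1-ps3, left its fold at 1.22 when added.

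The other mitochondrial members were closer to 1. Hspa9, the matrix HSP70 called mortalin, had 7966 and 9171 reads and a fold of 1.08 (1.05 to 1.12). Trap1, the mitochondrial HSP90, had 2061 and 2136 reads and a fold of 0.976 (0.918 to 1.04). Dnaja3, the J-domain partner of Hspa9, had 990 and 984 reads and a fold of 0.936 (0.856 to 1.02), so Hspa9 and not its partner was separated from 1.

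The members listed here as classically induced by heat shock factor 1 did not lie on 1 side. Of 9 listed, 7 were at or above the floor: Hspa1b, Hsph1, Hsp90aa1, Hspb8, Cryab, Bag3 and Dnajb1. Their median log2 ratio was 0.01 and their range −0.27 to 0.27, with 4 above 0, against 47.2% of all genes. Hsp90aa1, Hsph1 and Hspb8 had intervals above 1, Hspa1b had one below 1, and Cryab, Bag3 and Dnajb1 had intervals that spanned 1. Among all genes, 18.1% had an interval above 1 and 23.7% one below 1. Without the GC and length trend their median was 0.14, and 5 of the 7 were above 0, against 46.3% of all genes.

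The order of the members followed their transcript GC content. Over the 42 members the log2 ratio and GC content had a Spearman correlation of −0.75 and a Pearson correlation of −0.76, and over the 11349 nuclear genes that reached the floor they were −0.60 and −0.52. Median GC content was 49.8% over the members and 50.2% over all genes at or above the floor. These are correlations across genes of the same pair of libraries, and genes are not independent replicates. With those genes ordered into 10 bins of GC content, the median log2 ratio was 0.19 in the lowest bin and −0.29 in the highest. The member with the least GC, Chordc1 at 35.7%, had a log2 ratio of 0.23 and the one with the most, Stub1 at 60.8%, had −0.58. Hspa4l and Hsf2, both among the 5 members at least 1.2-fold higher, have 39.5% and 41.1%, and Hspa1b has 58.1%. The part of library preparation in this relation was not tested, and with 1 library per group it cannot be told apart from the treatment.

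**Figure D3:**
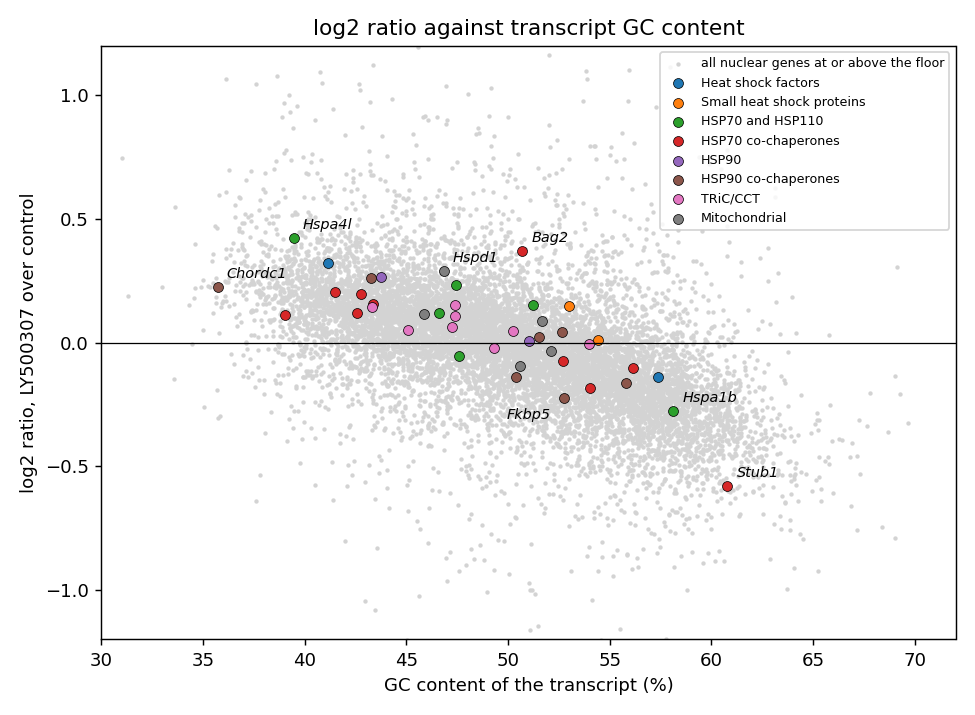
Log2 ratio of LY500307 over control (vertical) against transcript GC content in percent (horizontal). Grey points are 11305 nuclear genes that reached the floor, with 44 outside the drawn range of ±1.2, coloured points are the 42 chaperone genes and the horizontal line marks equal values. Chaperone genes lie along the same downward slope, from Chordc1 at the far left to Stub1 at the lower right, and Bag2 lies above most of them at its GC content.

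With the GC and length trend removed, the members ran from −0.26 to 0.39, where they had run from −0.58 to 0.42 as deposited. Bag2 alone was then past 1.2-fold, at a log2 ratio of 0.39 against 0.37 as deposited, where 7.61% of genes were at least 1.2-fold higher and 8.1% lower. Stub1 lay just short of the threshold at −0.26. Hspd1 kept most of its difference at 0.22 against 0.29, and Hspb8, at 0.23 against 0.15, and Hspa8, at 0.18 against 0.15, stood slightly further out than before. Hspa4l came to 0.18 from 0.42, Hsf2 to 0.16 from 0.32 and Hsp90aa1 to 0.14 from 0.27. Above 0 were again 28 of the 42 members, against 46.3% of all genes, and their median was 0.03, against −0.01 for all genes. Of the members, 8 had changed side, 4 in each direction. Chordc1, for example, went from 0.23 to −0.05, and Hsf1 from −0.14 to 0.06.

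Class medians lay close together as deposited, and their order was not the same without the trend. As deposited, the median log2 ratio was 0.14 for HSP70 and HSP110 and for HSP90, 0.12 for the HSP70 co-chaperones, 0.09 for the mitochondrial chaperones and for the heat shock factors, 0.08 for the small heat shock proteins, 0.06 for TRiC/CCT and 0.02 for the HSP90 co-chaperones. The widest class, the HSP70 co-chaperones, ran from −0.58 to 0.37. Without the trend, class medians came to 0.09 for HSP70 and HSP110, 0.08 for HSP90, 0.003 for the HSP70 co-chaperones, 0.02 for the mitochondrial chaperones, 0.03 for TRiC/CCT and −0.008 for the HSP90 co-chaperones, while they stood higher than as deposited for the small heat shock proteins, at 0.18, and the heat shock factors, at 0.11. By share of library reads, HSP90 took 0.748% and 0.811%, TRiC/CCT 0.564% and 0.604%, HSP70 and HSP110 0.307% and 0.349%, and the mitochondrial chaperones 0.226% and 0.264%. HSP90 co-chaperones held 0.196% in both libraries.

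**Figure D4:**
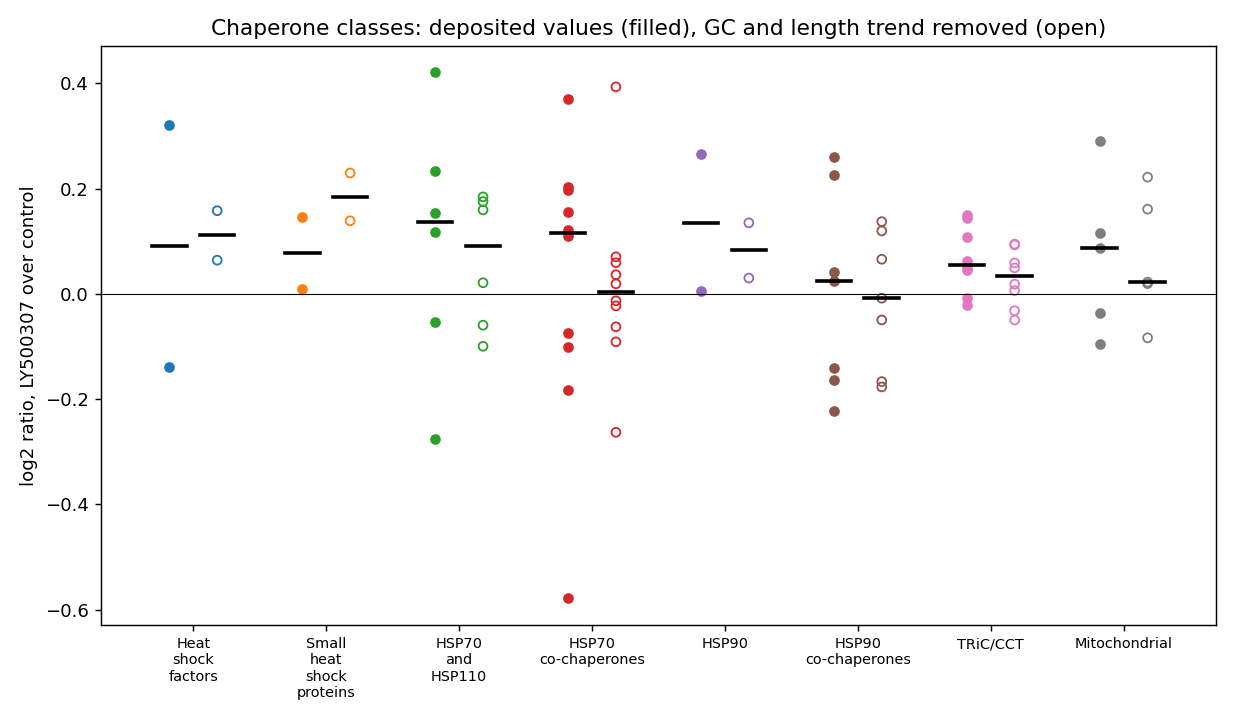
Log2 ratio of LY500307 over control (vertical) for the 42 chaperone genes by class (horizontal), with filled points for the deposited values, open points for values with the GC and length trend removed, and black bars for medians. The HSP70 co-chaperones run from −0.58 to 0.37 as deposited, and TRiC/CCT runs from −0.02 to 0.15 as deposited and from −0.05 to 0.09 with the trend removed.

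Other genes of the same pathways were read from listed families. Prefoldin, which hands actin and tubulin to TRiC/CCT, had 4 of 9 genes above 0, against 47.2% of all genes, and a median of −0.02. Past 1.2-fold was 1 gene, on the higher side, where 10.5% of all genes were higher and 15.9% lower. That gene was the prefoldin-like Uxt, with 163 and 248 reads and a fold of 1.43 (1.17 to 1.76). Vbp1 had 1135 and 1426 reads and a fold of 1.18 (1.09 to 1.28). Pfdn6 and Pfdn5 had folds of 0.889 (0.817 to 0.967) and 0.893 (0.809 to 0.985), so as deposited the subunits lay on both sides of 1. With the GC and length trend removed, log2 ratios were 0.009 for Vbp1, −0.04 for Pfdn6, −0.03 for Pfdn5 and 0.50 for Uxt. Of 3 phosducin-like regulators of TRiC/CCT, Pdcl was 1.22-fold higher (1.09 to 1.37) with 518 and 672 reads, and Txndc9 and Pdcl3 had folds of 1.07 (0.992 to 1.15) and 0.998 (0.902 to 1.10). Intervals lay above 1 for 3 of 9 prefoldin genes, 1 of 3 regulators and 6 of 8 TRiC/CCT subunits, against 18.1% of all genes. The difference between these shares was not tested.

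Further HSP90 co-chaperones, 16 genes at or above the floor, had 1 gene at least 1.2-fold higher and 3 lower, against 10.5% and 15.9% of all genes. Above 0 were 7 of the 16, against 47.2% of all genes. Ppid, an immunophilin like Fkbp4, was 1.21-fold higher (1.15 to 1.26) with 3535 and 4528 reads. Fkbp8, a membrane-anchored immunophilin of mitochondria, had 4311 and 3423 reads and a fold of 0.748 (0.715 to 0.782), with a log2 ratio of −0.03 once the GC and length trend was removed. Nudc, a co-chaperone with a p23-like domain, had 3662 and 3128 reads and a fold of 0.804 (0.767 to 0.844). As deposited, the immunophilins of this list thus lay on both sides of 1, while both FKBP members were below it.

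Further HSP70 partners, 17 genes at or above the floor, had none at least 1.2-fold higher and 4 lower, against 10.5% and 15.9% of all genes. Their median log2 ratio was 0.03 with 9 above 0, against 47.2% of all genes. Intervals lay above 1 for 4 and below 1 for 5, against 18.1% and 23.7% of all genes. Dnajc13 and Dnajc8, J-domain proteins of endosomes and of the spliceosome, stood highest with folds of 1.18 (1.11 to 1.25) and 1.16 (1.09 to 1.23). Dnajb5 had 59 and 34 reads and a fold of 0.543 (0.345 to 0.841), on few reads. Bag6, which guides membrane proteins after synthesis, had 4596 and 3953 reads and a fold of 0.810 (0.776 to 0.845). With the GC and length trend removed, the log2 ratio of Bag6 was −0.04 and that of Dnajb5 −0.77. Hspb6 and Hspb11, small heat shock genes outside the members, had folds of 0.753 (0.554 to 1.02) and 0.847 (0.696 to 1.03), and neither was separated from 1. Hsbp1, a binding partner of heat shock factor 1, had 1003 and 924 reads and a fold of 0.867 (0.792 to 0.949).

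Genes of mitochondrial import and protein quality control lay mostly below 0. Of 13, 12 had a log2 ratio below 0 and 1 above 0, where 47.2% of all genes were above 0. Intervals lay below 1 for 6 of them, against 23.7% of all genes. The median was −0.16 as deposited and −0.10 with the trend removed. Pam16 had 317 and 248 reads and a fold of 0.737 (0.621 to 0.872), and Dnajc15 had 510 and 401 and a fold of 0.740 (0.648 to 0.845), both partners of the motor that pulls proteins into the matrix with Hspa9. The exception was Grpel2, a nucleotide exchange factor of Hspa9, with 177 and 244 reads and a fold of 1.30 (1.07 to 1.58).

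Chaperones of the endoplasmic reticulum resembled the cytosolic ones in their median, 0.05 over 19 genes with 11 above 0, against 47.2% of all genes. Hsp90b1, the HSP90 of that compartment, had 9716 and 12580 reads, a fold of 1.22 (1.19 to 1.25), next to Canx, the lectin chaperone calnexin, with 9580 and 12213 reads and a fold of 1.2 (1.17 to 1.23). Herpud1, which serves degradation from the endoplasmic reticulum, had 997 and 827 reads and a fold of 0.781 (0.711 to 0.857). Proteasome subunits, 31 genes, had a median of −0.02 with 13 above 0, against 47.2% of all genes. None was at least 1.2-fold higher and 1 was lower, against 10.5% and 15.9% of all genes. The lower one was Psmd3, with 6250 and 5494 reads and a fold of 0.828 (0.798 to 0.858). Its log2 ratio was −0.04 with the GC and length trend removed.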

How the data were processed

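Total RNA of 4T1 cells was depleted of ribosomal RNA and sequenced, per the labels, with 1 library per group. CASAVA 1.8, Bowtie2 and the mm9 build appear in the submitters' processing notes, without their roles; the sources used here name no counter, annotation, normalization or use of strand. The deposited signal is a normalised read count per gene: values are whole multiples of 1.03 in the control and 0.970 in the LY500307 library, and dividing by these gave whole reads within 0.01 for 99.98% and 99.97% of values. No count test was run on them, since a single library on each side allows no estimate of the spread.

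Symbols came from GENCODE M21, which matched 19443 of 19498 gene IDs. Log2 ratios used a pseudocount of 1.03, the 5th percentile of values above 0, which lowers the ratios of scarce genes. The floor of 33.0 is the 40th percentile. The 1.2-fold threshold was set with earlier results of these data known, because few members were past 1.5-fold. Folds without pseudocount have 95% exact Clopper-Pearson intervals (scipy 1.17.1), for counting error only, because these reads carry no molecular identifiers and may be copies of one molecule. The trend in GC content and length was a robust regression on splines of 5 degrees of freedom (statsmodels 0.14.6) over the nuclear genes that reached the floor, with 1 coding transcript per gene, and keeps the overall level. Near-identical copies had at least 400 aligned bases (blastn 2.17.0). Recovery of reads, folds with their intervals and removal of a GC trend were tested on simulated data. The searches for promoter elements and for copies were not.

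The members were given as a list, and the other lists and the named genes (all members, and of each other list those among the 2 highest and 2 lowest ratios) were chosen with earlier results of these data known. Alternatives were the pseudocount, the floor, the scaling between libraries, removal of the trend and, added after seeing the data, the addition of near-identical copies.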

Additional observations from a re-analysis of the deposited data

How the results depend on the processing

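No paired analysis was possible because each group has 1 library, and for the same reason no replicate could be left out. Under other pseudocounts, another floor or none, and added near-identical copies (an alternative chosen after seeing the data), no member at or above the floor left its counting interval. With library totals set equal, which shifts every ratio by the same amount, the median log2 ratio was 0.17 for HSP70 and HSP110 and 0.17 for HSP90, the deeply read Hspa8, Hsp90aa1, Hsp90ab1 and Hspd1 left their counting intervals on the higher side, and 2 members went from below to above 0. The count of members at least 1.2-fold lower was 1 under that scaling and 1 with the median of all genes set to 0, Stub1 in both. The higher count was 7 and 6 under these scalings, and 4 with copies added, since Hsp90aa1 then lay just under the threshold. Removal of the GC and length trend moved 26 of 42 members out of their counting intervals. It left medians of 0.0905 for HSP70 and HSP110, 0.0827 for HSP90 and 0.0226 for the mitochondrial chaperones, 1 member at least 1.2-fold higher and 0 lower. The cause was not tested. Depth limits Hspb1, Hspa2 and Cryab, whose intervals each span more than a 1.5-fold range.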
